A study of Homo sapiens with 4 samples.

Results

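The genes described here are 41 genes of the integrated stress response and of amino acid supply, taken by name from a pathway list. The members were chosen with earlier results of these data known. Of the 41 genes, 40 had at least 1 probe set assigned to a single gene symbol, out of 19775 genes named on the array. Together they held 81 probe sets. GPT2, the mitochondrial alanine aminotransferase, was not measured here. Expression was read on 4 oligonucleotide arrays hybridised with biotin-labelled total RNA of 2 established lines, MyLa from mycosis fungoides and HH from another cutaneous T cell lymphoma. Each was kept for 40 hours in 0.1% serum, so low serum was shared by all 4 arrays, and the cells were either left without cytokine (control) or given IL-32γ, a form of interleukin-32, at 5 ng/ml. There was 1 array per line and condition, and each line stands for a single lymphoma.

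In the integrated stress response, kinases that sense unfolded protein (PERK, encoded by EIF2AK3) or uncharged tRNA (GCN2, encoded by EIF2AK4) phosphorylate the translation factor eIF2. Bulk protein synthesis then slows while the mRNA of the transcription factor ATF4 is translated more, so that the activity of the pathway is set largely at the level of translation. ATF4, paired with C/EBP proteins, turns on genes that make amino acids, import them and charge tRNAs, along with feedback genes that restore translation or, under lasting stress, favour cell death. In T cells the same genes supply the serine, asparagine, glutamine and proline that dividing cells draw on.

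ATF4 pairs with C/EBP proteins on the C/EBP-ATF response element, so RefSeq promoter windows (GRCh38.p14, 250 bases before to 50 after each transcription start) were searched on both strands for its letters TGATGNAA. Of the 35 genes with a window, 9 held it (25.7%), against 4.46% of all 27305 genes with a window. The list was drawn from a pathway defined by ATF4, so this share is a description. Each element is printed in capitals on the strand of its gene, because it is the site by which ATF4 is known to reach such genes. Positions count from the transcription start. In CEBPG, ASNS, SLC7A1 and SLC1A5 the element reads as TGATGNAA, and in the other 5 as its reverse complement.
CEBPG (chr19:33374060-33374089, + strand, element starting at -42): cgcgcggcgtcTGATGCAAcctgccggcaa
CHAC1 (chr15:40953251-40953280, + strand, element starting at -209): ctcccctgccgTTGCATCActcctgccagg
ASNS (chr7:97872458-97872487, - strand, element starting at -68): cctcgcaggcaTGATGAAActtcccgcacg
SLC7A1 (chr13:29595663-29595692, - strand, element starting at 8): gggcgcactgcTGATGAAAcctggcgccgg
SLC3A2 (chr11:62881719-62881748, + strand, element starting at 38): gtaatgtgcaggactccTTACATCAgctcc
SLC1A4 (chr2:64989381-64989410, + strand, element starting at -7): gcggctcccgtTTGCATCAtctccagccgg
SLC1A5 (chr19:46784893-46784922, - strand, element starting at -97): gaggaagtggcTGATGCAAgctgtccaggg
AARS1 (chr16:70289675-70289704, - strand, element starting at -187): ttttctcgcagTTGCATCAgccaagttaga
GARS1 (chr7:30594834-30594863, + strand, element starting at -33): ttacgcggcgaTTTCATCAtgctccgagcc
A cAMP response element, TGACGTCA, which does not overlap these letters, lay in the window of PPP1R15A (1 of 35 genes, 2.86%, against 2.25% of all genes). It is printed as the only match among these genes. PPP1R15A was higher in MyLa with IL-32γ and lower in HH (-0.26), and a part of the element in this was not tested.
PPP1R15A (chr19:48872352-48872381, + strand, element starting at -58): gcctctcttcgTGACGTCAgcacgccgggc
The endoplasmic reticulum stress element was in no window of these genes and in 0.0916% of all genes.

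Each probe set has a log2 expression value, and 5 or more was taken as measured, since close to 43% of probe sets lay above it on each array. Where a gene had several probe sets, the brightest on average represented it. The arrays of a line correlated at r = 0.994 (MyLa) and 0.997 (HH) over all probe sets, and the control arrays of the lines at 0.908. Of 10 T cell markers with a probe set, CD2, CD3D, CD3G and TRBC1 were measured on every array, CD3E, CD4 and CD5 on the HH arrays alone, and CD7, LCK and CD28 on none. Of 5 fibroblast markers, 2 (COL1A1 and COL3A1) were measured in MyLa, with a summed log2 value of 30.4 to 30.9 against 13.8 to 14.7 in HH, and COL1A1 was measured on the HH IL-32γ array (5.66). COL1A2, DCN and LUM were below 5 on every array. The monocyte marker ITGAM was measured in MyLa, with CD14, LYZ and CSF1R below 5. None of 4 B cell markers was measured, and of 4 keratinocyte markers KRT10 was, in both lines. The part of these differences in the results was not tested. In RNA from whole cultures, fewer cells that express a gene and less RNA per cell cannot be told apart.

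Of the 40 genes, 38 (95.0%) were measured on at least 1 array, against 56.9% of all genes, and 34 on all 4. NUPR1, a stress-induced chromatin protein, and STC2, a secreted glycoprotein induced by ATF4, were below 5 on every array. PHGDH, GLUL and VLDLR were measured in HH alone, and CBS was measured on both MyLa arrays and on 1 HH array.

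**Figure D1:**
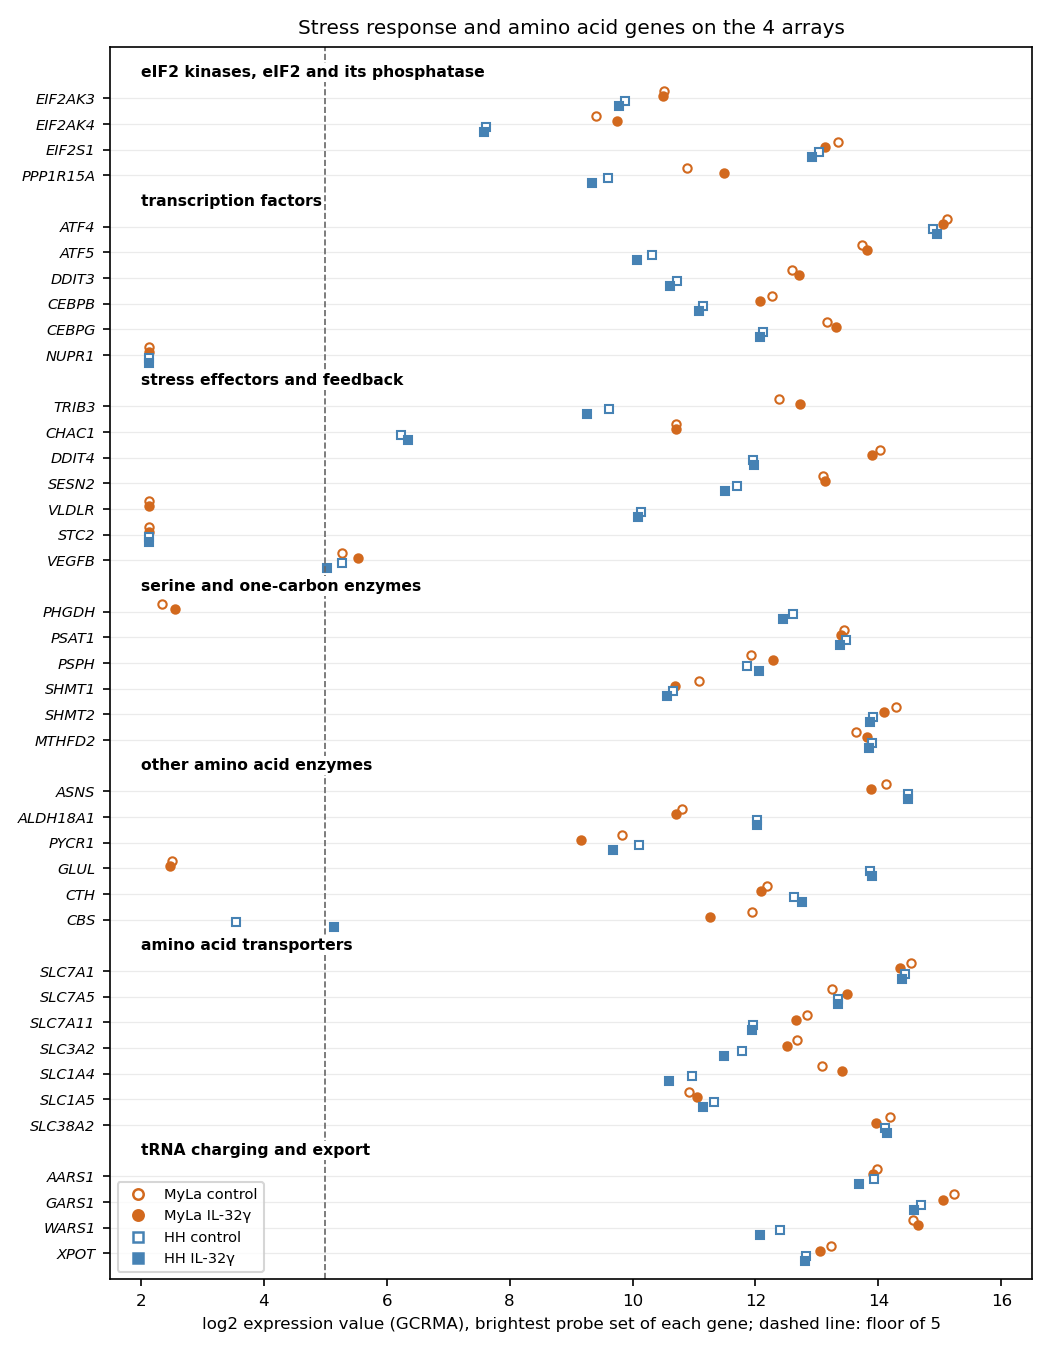
Log2 expression value (horizontal axis) of the probe set standing for each of 40 genes on each of the 4 arrays, 1 point per array (circles MyLa, squares HH, open control, filled IL-32γ), grouped by role, with the floor of 5 dashed. The 2 arrays of a line lie close together for most genes, PHGDH, GLUL and VLDLR lie below the floor in MyLa, and CBS lies near or below it in HH.

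The largest differences among these genes were between the lines. Of the tested genes, 4 of 5 transcription factors and 4 of 6 stress effectors were higher in MyLa and 1 effector, VLDLR, was lower. The higher ones included CHAC1 (21.4-fold), ATF5 (11.9-fold), TRIB3 (8.66-fold), DDIT4 (3.97-fold) and DDIT3 (3.95-fold), while ATF4 itself differed by 0.17 (log2, ATF4 MyLa minus HH). HH had PHGDH and GLUL, the enzymes that open serine synthesis and make glutamine, where MyLa had neither above the floor. Of 38 genes tested, 13 were higher in MyLa and 4 lower at an adjusted p under 0.05 and 2-fold or more (limma with Benjamini-Hochberg adjustment over 11010 genes, n = 2 arrays per line). Over all genes 18.7% were higher and 16.8% lower by the same rule, against 34.2% and 10.5% of these genes, and the median difference was 0.29 over these genes and 0.03 over all. By the adjusted p alone, 23 of the 38 passed, against 56.0% of all genes. The 2 arrays of a line differ by IL-32γ and are not shown by the labels to be separate cultures, so the p-values measure the spread between these arrays, which holds the response to IL-32γ as well as noise.

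**Figure D2:**
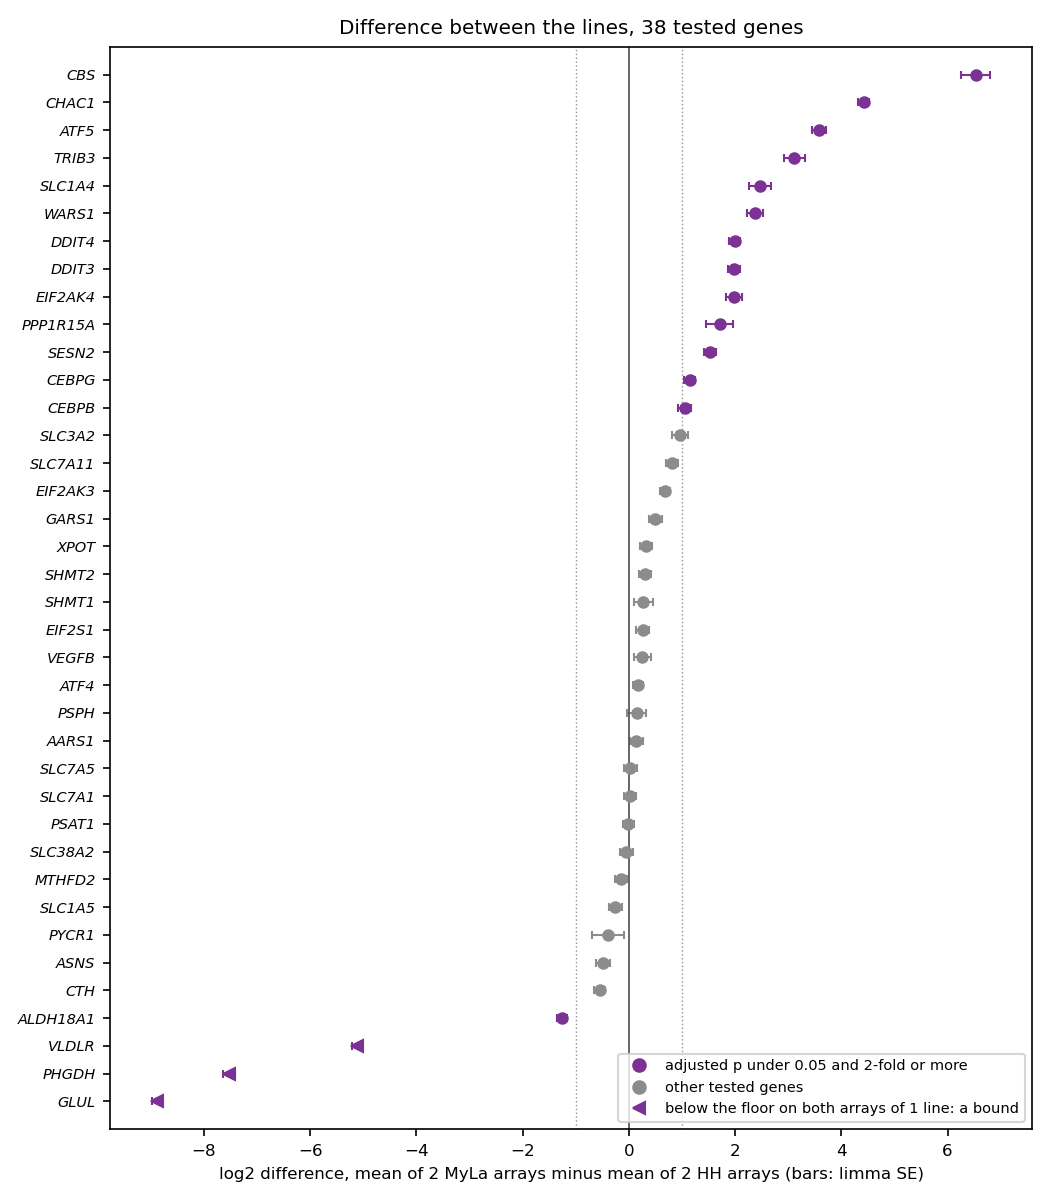
Log2 difference between the mean of the 2 MyLa arrays and the mean of the 2 HH arrays for 38 tested genes, with limma's standard error as bars; triangles mark genes below the floor on both arrays of a line, whose difference is a bound and whose bar is too short because values under 5 were set to 5. CBS, CHAC1, ATF5 and TRIB3 lie farthest to the right and GLUL, PHGDH and VLDLR farthest to the left.

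Among the eIF2 kinases, eIF2 and its phosphatase, 2 of 4 genes were higher in MyLa. EIF2AK4, the kinase GCN2 that senses uncharged tRNA, read 9.41 on the MyLa control array, 9.74 with IL-32γ, 7.62 on the HH control array and 7.58 with IL-32γ. Both MyLa arrays lay above both HH arrays, as they did for 42.1% of all genes (and below for 40.7%), and the log2 difference was 1.97 ± 0.15 (SE, adjusted p = 0.00169). PPP1R15A, or GADD34, which brings a phosphatase to eIF2 and so restores translation, read 10.88 and 11.49 in MyLa and 9.61 and 9.35 in HH (control, then IL-32γ). It was higher in MyLa by 1.71 ± 0.26 (adjusted p = 0.00970), and its other probe set by 1.93. EIF2AK3, the kinase PERK of the endoplasmic reticulum, read 10.52 and 10.50 in MyLa and 9.87 and 9.78 in HH, a difference of 0.68 ± 0.10 that passed the test (adjusted p = 0.00816) but not 2-fold. EIF2S1, the subunit of eIF2 that is phosphorylated, differed by 0.26 (adjusted p = 0.150), and its other probe sets by 0.27 and, with the opposite sign, by -1.01.

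Of the transcription factors, 4 of 5 tested genes were higher in MyLa and none lower. ATF4 read 15.11 and 15.05 in MyLa and 14.88 and 14.95 in HH, and its difference of 0.17 ± 0.10 did not pass the test (adjusted p = 0.215). ATF5, a close relative of ATF4 that is likewise translated more under stress, read 13.73 and 13.81 in MyLa and 10.31 and 10.07 in HH. Its difference of 3.58 ± 0.13 (adjusted p = 0.000256) was borne by all 4 of its probe sets, which ran from 3.06 to 4.61. DDIT3, encoding the C/EBP family protein CHOP that favours death under lasting stress, read 12.59 and 12.71 in MyLa and 10.73 and 10.61 in HH, a difference of 1.98 ± 0.11 (adjusted p = 0.000745). CEBPG, the C/EBP partner of ATF4 whose own window carries the element shown above, read 13.16 and 13.32 in MyLa and 12.12 and 12.08 in HH (1.14 ± 0.11, adjusted p = 0.00290), but its other probe set differed by 0.64. CEBPB, another C/EBP partner, read 12.27 and 12.07 in MyLa and 11.15 and 11.08 in HH (1.05 ± 0.12, adjusted p = 0.00464), just past 2-fold.

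Stress effectors and feedback genes were called most often, with 4 of 6 tested genes higher in MyLa and 1 lower. CHAC1, a glutathione-degrading enzyme and target of ATF4, read 10.70 on both MyLa arrays and 6.23 and 6.34 on the HH arrays. Its difference of 4.42 ± 0.10 (adjusted p = 8.41e-05) ranked 336 of 11010 genes toward MyLa. TRIB3, a pseudokinase that feeds back on ATF4 and CHOP, read 12.38 and 12.72 in MyLa and 9.62 and 9.26 in HH (3.11 ± 0.20, adjusted p = 0.00113), and its other probe set differed by 3.04. DDIT4, or REDD1, a brake on mTORC1, read 14.02 and 13.90 in MyLa and 11.96 and 11.98 in HH (1.99 ± 0.10, adjusted p = 0.000586). SESN2, the leucine-sensing sestrin that also restrains mTORC1, read 13.10 and 13.14 in MyLa and 11.69 and 11.50 in HH (1.52 ± 0.11, adjusted p = 0.00159). In each of these 4 genes the lowest MyLa array exceeded the highest HH array by over 1 on the log2 scale. VLDLR, a lipoprotein receptor that the stress response can raise, went the other way, below 5 on both MyLa arrays against 10.14 and 10.09 in HH, at least 34.7-fold (adjusted p = 5.74e-05). VEGFB, a growth factor of the VEGF family, lay between 5.02 and 5.52 on all arrays, close to the floor.

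Of 6 serine and folate enzymes, 1 differed between the lines. PHGDH, which makes the entry step from glycolysis into serine, read 2.35 and 2.55 in MyLa, far below the floor, and 12.61 and 12.44 in HH. It was at least 184-fold higher in HH (adjusted p = 4.80e-05) and ranked 43 of 11010 genes toward that line. PSAT1, the aminotransferase of the next step, read 13.44 and 13.39 in MyLa and 13.47 and 13.38 in HH, and the lines overlapped, while its other probe set differed by 0.56. PSPH, the phosphatase of the last step, read 11.92 and 12.29 against 11.87 and 12.06 (0.15 ± 0.18, adjusted p = 0.511). A second probe set of PSPH gave another picture, with 12.02 and 12.38 in MyLa and 7.81 and 8.41 in HH, a difference of 4.09, so the level of PSPH between the lines is uncertain. Whether near-identical PSPH pseudogenes have a part in this was not tested. SHMT1, SHMT2 and MTHFD2, which pass carbon from serine into the folate cycle, differed by 0.27, 0.30 and -0.15 and did not pass the test (adjusted p from 0.0978 to 0.341). The other probe set of MTHFD2 had the opposite sign (0.13).

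Of 6 other amino acid enzymes, 1 was higher in MyLa and 2 lower. GLUL, glutamine synthetase, read 2.51 and 2.47 in MyLa and 13.87 and 13.90 in HH, at least 472-fold higher in HH (adjusted p = 4.80e-05). It ranked 8 of 11010 genes toward HH, and all 3 of its measured probe sets were below 5 in MyLa. ALDH18A1, which starts proline synthesis from glutamate, read 10.81 and 10.71 in MyLa and 12.02 on both HH arrays (-1.26 ± 0.10, adjusted p = 0.00169), with its other probe set at -1.24. CBS, which joins homocysteine and serine in the path to cysteine, read 11.94 and 11.26 in MyLa and 3.54 and 5.15 in HH. With values under 5 set to 5 it differed by 6.53 ± 0.27 (adjusted p = 0.000356), and a near-identical gene copy, CBSL, may not be told apart from it by these probe sets. CTH, the next enzyme of that path, read 12.19 and 12.10 in MyLa and 12.62 and 12.77 in HH (-0.55 ± 0.11, adjusted p = 0.0198), a difference under 2-fold. ASNS, asparagine synthetase, a classic ATF4 target, was also lower in MyLa by less than 2-fold, at 14.12 and 13.88 against 14.48 on both HH arrays (-0.49 ± 0.13, adjusted p = 0.0384). PYCR1, the mitochondrial enzyme that finishes proline, differed by -0.40 with overlapping arrays (adjusted p = 0.314).

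Amino acid transporters differed less, with 1 of 7 genes past the test and 2-fold. SLC1A4, a carrier of alanine, serine and cysteine, read 13.08 and 13.41 in MyLa and 10.97 and 10.59 in HH (2.47 ± 0.21, adjusted p = 0.00212). Of its 5 measured probe sets, 4 were higher in MyLa and 1 was lower, by 1.10, at 8.90 and 9.20 against 9.66 and 10.64. SLC3A2, the heavy chain shared by several exchangers, differed by 0.96 ± 0.15 (adjusted p = 0.0111) and SLC7A11, the cystine carrier that pairs with it, by 0.80 ± 0.11 (adjusted p = 0.00805), both under 2-fold at the probe sets standing for them. SLC7A11 had other probe sets at 0.61 and at 3.70, the latter with 8.94 and 8.51 in MyLa and 4.29 and 5.05 in HH. SLC7A5, a leucine carrier that likewise pairs with SLC3A2, differed by 0.03 and the arginine carrier SLC7A1 by 0.02. The glutamine carrier SLC1A5 and the neutral amino acid carrier SLC38A2 differed by -0.25 and -0.05. None of SLC7A5, SLC7A1, SLC1A5 and SLC38A2 passed the test (adjusted p from 0.153 to 0.867). The 4 measured probe sets of SLC7A1 ran from -1.35 to 0.64 between the lines.

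Among the genes for charging and exporting tRNA, WARS1, the tryptophan tRNA synthetase, stood apart. It read 14.56 and 14.65 in MyLa and 12.41 and 12.07 in HH (2.37 ± 0.16, adjusted p = 0.00115), and its other probe set differed by 3.13. GARS1, for glycine, was higher in MyLa by 0.50 ± 0.12 (adjusted p = 0.0314), below 2-fold. AARS1, for alanine, differed by 0.14 (adjusted p = 0.395) and XPOT, the exporter of tRNA from the nucleus, by 0.32 (adjusted p = 0.0784), with its other probe set at -0.44. Of the 9 genes with the C/EBP-ATF element shown above, 3 (CEBPG, CHAC1 and SLC1A4) were called higher in MyLa and 0 lower. Of the 25 tested genes with a window and no match to TGATGNAA in it, 10 were called higher and 4 lower. Elements outside the window or with other letters were not searched for. The shares were not tested against each other. The median difference was 0.50 over these 9 and 0.27 over the 25, whose values ran from -8.88 to 6.53.

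Of the 17 genes called between the lines, 10 had several measured probe sets. In 9 of these all probe sets had the same sign, and in 8 all passed 2-fold the same way. The genes had been called at their brightest probe set, and the share over all called genes is not given here. The counts therefore describe these genes alone. Leaving out the HH IL-32γ array, with fewer arrays and degrees of freedom, left 7 genes called higher and 4 lower, without CEBPB (adjusted p = 0.0826), CEBPG (0.0635), EIF2AK4 (0.0689), PPP1R15A (0.147), SLC1A4 (0.0611) and TRIB3 (0.0509). Leaving out the HH control array left 8 higher and 4 lower, without the first 5 of these (adjusted p from 0.0530 to 0.123). Without the MyLa IL-32γ array PPP1R15A (adjusted p = 0.0545), and without the MyLa control array CEBPB (a difference of 0.95), were no longer called.

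In MyLa, IL-32γ went with few differences of 1.5-fold or more among these genes. PPP1R15A was higher (1.52-fold), and PYCR1 (1.58-fold) and CBS (1.61-fold) were lower, with 1 array per condition and so no test. These are 1 of 35 measured genes higher and 2 lower, against 7.77% and 7.65% of all 10497 genes measured in the line. The median difference was -0.06 over these genes and -0.07 over all genes. PPP1R15A was higher by 0.61 (log2) at the probe set standing for it and by 0.74 at the other, which read 10.39 and 11.13. CBS was lower by 0.69 and, at the other probe set, by 0.78 (10.97 without and 10.19 with IL-32γ). PYCR1, with a single probe set, went from 9.82 to 9.16.

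ATF4 differed by -0.06 in MyLa. At the probe sets standing for them, DDIT3 stood at 0.12, ATF5 at 0.08, CHAC1 at 0.00, DDIT4 at -0.12, SESN2 at 0.03 and TRIB3 at 0.34. Of the enzymes and carriers outside PYCR1 and CBS, the values ran from -0.39 for SHMT1 to 0.37 for PSPH, with ASNS at -0.24 and SLC1A4 at 0.33. The 5 measured enzymes of the group of ASNS, ALDH18A1, PYCR1, CTH and CBS lay below 0 at the probe sets standing for them, as did 6205 of all 10497 genes measured in the line. Their median was -0.24. The other probe sets of ALDH18A1 (0.11) and CTH (0.21) lay above 0.

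In HH, none of 38 measured genes reached 1.5-fold in either direction at the probe set standing for it, against 1.14% of all 10307 genes higher and 4.46% lower. The largest differences were those of PYCR1, which read 10.10 without and 9.68 with IL-32γ (-0.42), SLC1A4 (-0.38), TRIB3 (-0.37) and WARS1 (-0.34) on the low side, and PSPH (0.19) on the high side. The median was -0.06 over these genes and -0.07 over all, with 28 of 38 below 0, against 6792 of 10307 of all genes measured in HH. ATF4 stood at 0.07, DDIT3 at -0.12, CHAC1 at 0.11 and ASNS at 0.00. The low level of CBS made its value depend on the floor: it was 0.15 with values under 5 set to 5, and 1.61 as deposited.

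With the lines as replicates (n = 2 lines, limma with the line as a block and 1 residual degree of freedom), no gene of the 38 passed an adjusted p of 0.05, and 0% of all 11010 genes did. At an unadjusted p under 0.05, 1 of these genes was lower and none higher, against 7.60% and 1.54% of all genes. That gene was PYCR1, with a mean difference of -0.54 ± 0.13 over the lines (limma adjusted p = 0.544). PSPH had the highest mean difference, 0.28 ± 0.12, with the same sign in both lines (adjusted p = 0.564). In 4 genes the responses of the lines had opposite signs and differed by 1.5-fold or more, against 7.78% of all genes: PPP1R15A, TRIB3, CBS and SLC1A4. Differences of that size, whatever the sign, were found in 4 of 38 genes and in 14.7% of all. The difference of the responses cannot be tested with 4 arrays.

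**Figure D3:**
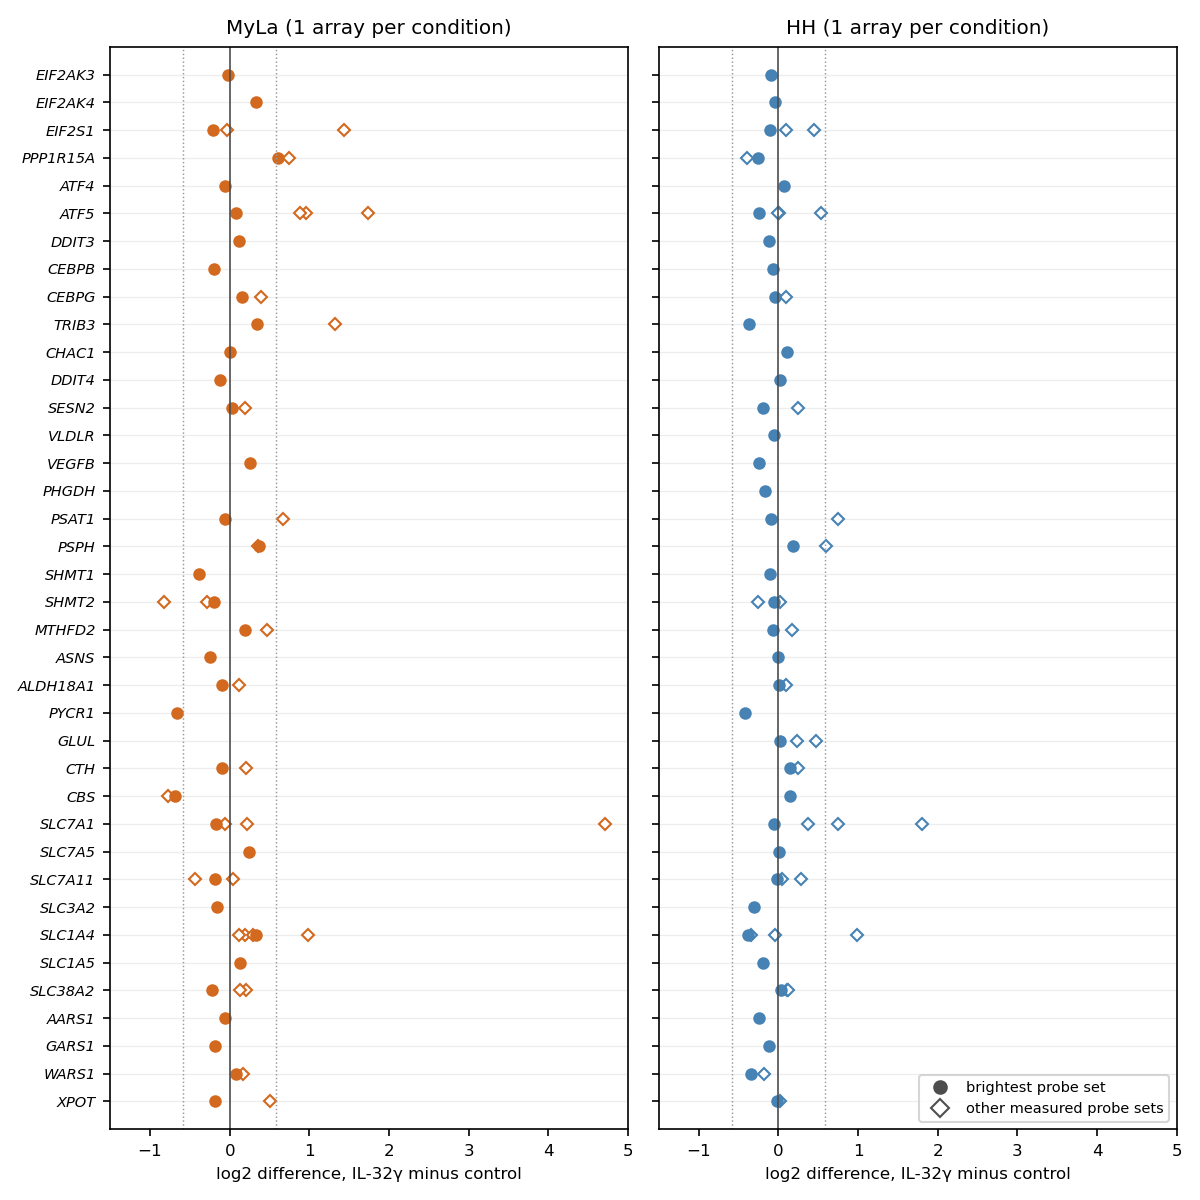
Log2 difference between the IL-32γ array and the control array (horizontal axis) in MyLa (left) and HH (right) for every measured probe set, with filled circles for the probe set standing for the gene and open diamonds for its others; dotted lines mark 1.5-fold. Filled circles lie within 1.5-fold but for PPP1R15A, PYCR1 and CBS in MyLa, while open diamonds of SLC7A1, ATF5, EIF2S1 and TRIB3 lie far to the right in MyLa.

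Probe sets of the same gene did not always read the same response. Of 30 measured MyLa probe sets other than the brightest of their gene, 9 were higher by 1.5-fold or more with IL-32γ and 2 lower, against 15.1% and 9.29% of all such probe sets, and 24 lay above 0 (80.0%, against 49.3% of all). In HH 5 of 29 were higher and none lower, against 8.64% and 3.41%, and 24 lay above 0 (82.8%, against 53.2% of all). The largest was at a probe set of the arginine carrier SLC7A1, where MyLa read 6.12 without and 10.82 with the cytokine and HH read 8.92 and 10.72. For SLC7A1 the 3 remaining probe sets stood between -0.18 and 0.21 in MyLa and between -0.06 and 0.75 in HH. ATF5 was higher in MyLa by 0.96, 0.89 and 1.74 at its other 3 probe sets and by 0.08 at the brightest. EIF2S1 had a probe set that went from 11.38 to 12.81 in MyLa, with the other 2 at -0.21 and -0.03. TRIB3 had 1 other probe set, higher by 1.32 (7.39 and 8.70). PSAT1 had 1 other probe set, higher by 0.67 in MyLa and 0.74 in HH. SHMT2 went the other way, with a probe set at -0.83 in MyLa (12.55 and 11.72). The remaining differences past 1.5-fold in MyLa were at the second probe sets of PPP1R15A and CBS given above and at 1 of SLC1A4 (0.98). In HH they were at SLC7A1 (1.80 and 0.75), SLC1A4 (0.99), PSAT1 (0.74) and PSPH (0.60). Other probe sets of CEBPG, SESN2, MTHFD2, ALDH18A1, CTH, SLC7A11, SLC38A2, WARS1, XPOT and, in HH, GLUL stayed within 1.5-fold, from -0.44 for SLC7A11 to 0.51 for XPOT in MyLa and from -0.18 for WARS1 to 0.48 for GLUL in HH.

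**Figure D4:**
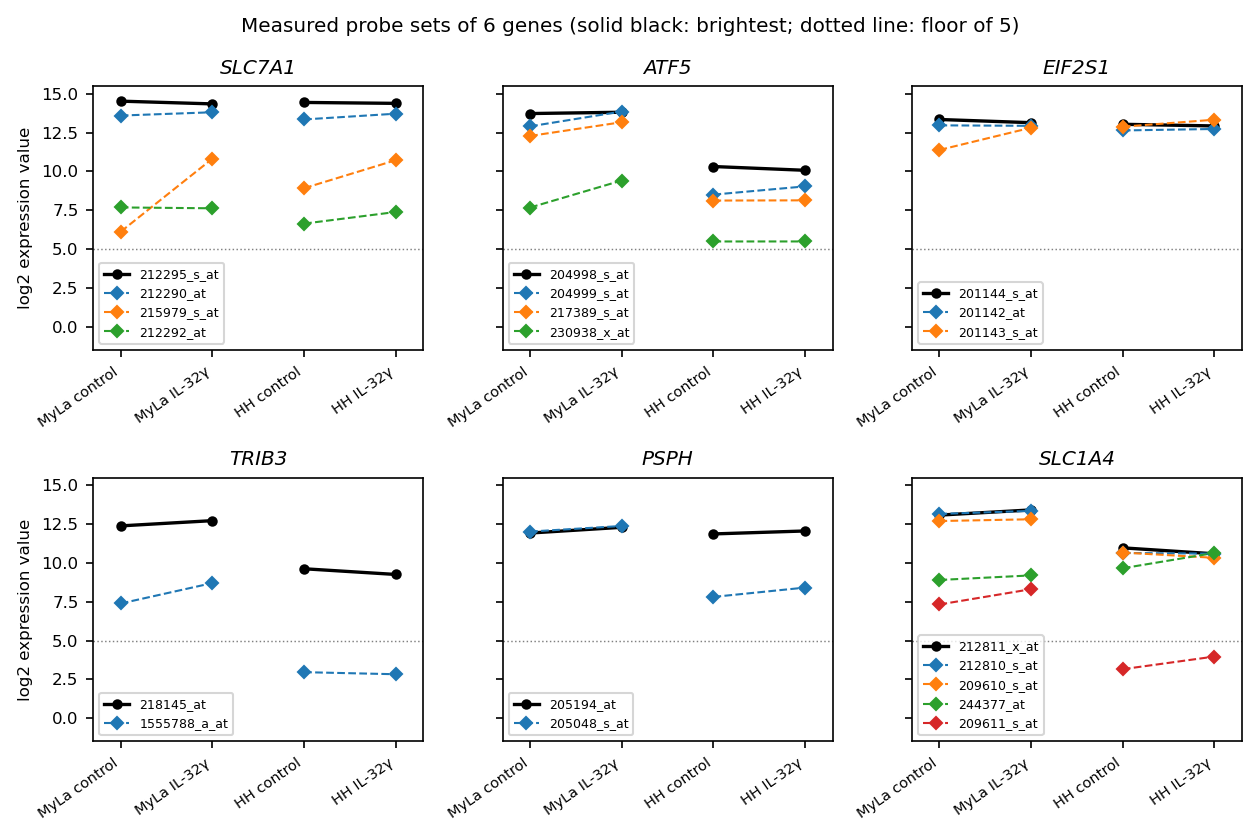
Log2 expression value (vertical axis) of every measured probe set of 6 genes on the 4 arrays, with the probe set standing for the gene in black and its others dashed; lines join the 2 arrays of a cell line. A probe set of SLC7A1 goes from 6.12 to 10.82 in MyLa while the others stay level, a probe set of PSPH is far lower in HH, and 1 of the probe sets of SLC1A4 is higher in HH.

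The array's own control probe sets for the 5′ ends of transcripts also differed. For ACTB the 5′ probe set had 10.12 (control) and 11.81 (IL-32γ) in MyLa and 12.69 and 13.58 in HH, while its 3′ partner lay between 15.07 and 15.27. With IL-32γ the 5′ probe sets of GAPDH (0.68 in MyLa, 0.15 in HH), ISGF3A (0.72 and 0.50) and M27830 (2.82 and 1.10) were also higher. The 3′ partners of GAPDH (0.04 and 0.03) and ISGF3A (-0.10 and -0.11) stayed near 0. The control HUMRGE was higher at its 5′ end (1.53 and 1.27) and at its 3′ end (2.23 and 1.03). Of the 4 arrays, MyLa control had the lowest value at the 5′ probe set of ACTB. Among the members' other probe sets higher by 1.5-fold or more in MyLa, those of SLC7A1 and EIF2S1 were likewise lowest there. Those of ATF5, TRIB3, PSAT1, PPP1R15A and SLC1A4 were lowest on an HH array, and all of these had a higher mean in MyLa than in HH. For them the lowest array therefore does not separate the 5′ difference from the difference between the lines. Within MyLa the control array was the lower in all of them, by the way they were picked. The part of the 5′ difference in the responses of the members' other probe sets was not tested. In 8 of 19 genes with several measured probe sets in MyLa, and in 11 of 18 in HH, the probe sets did not all have the same sign. Many of these values lay near 0. The share over all genes is not given here, so mixed signs cannot be called a trait of these genes.

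Other genes of the pathway, in 8 lists that hold none of the genes above, were tested in the same way. Of 111 tested genes in these lists, 18 were higher in MyLa and 11 lower by the rule used between lines, together 26.1%, against 35.5% of all genes and 44.7% of the 38. The list of other ATF4 partners and stress targets had 6 of 14 higher and 1 lower, with a median of 0.90. Its largest differences were TXNIP, an inhibitor of thioredoxin and glucose uptake, at 13.65 and 13.70 in MyLa and below 5 in HH (at least 410-fold), and in log2 GADD45A, a growth arrest gene (6.29), the repressor NFIL3 (3.75) and INHBE, an activin subunit (3.68). ATF3, an ATF4-induced factor named after its values were seen, read 13.97 and 14.00 in MyLa and 11.95 and 11.82 in HH (2.10 ± 0.10, adjusted p = 0.000543). CLIC4, the 1 lower gene and likewise named after its values were seen, differed more than ATF3 and the other way. It read 11.20 and 10.73 in MyLa and 13.01 and 13.25 in HH (-2.17 ± 0.21, adjusted p = 0.00321).

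Endoplasmic reticulum genes of the XBP1 and ATF6 branches had 4 of 19 higher in MyLa and none lower, with a median of 0.67. These were ERN1, encoding the sensor IRE1 (2.36), the co-chaperone DNAJB9 (1.40), the chaperone HYOU1 (1.14) and HSPA5, encoding BiP (1.08). Of 14 other tRNA synthetases, 1 was lower in MyLa, VARS1 for valine (-1.36), and none higher, with a median of 0.05. Other eIF2 and eIF2B genes had 1 of 16 higher, EIF2B2 (1.05), and 1 lower, IMPACT, an inhibitor of GCN2 signalling, which was below 5 in MyLa and 9.55 and 9.76 in HH (at least 25.2-fold). EIF2AK4 and IMPACT thus differed between the lines in opposite directions, and whether GCN2 signalling differed was not tested. EIF2AK1, another eIF2 kinase, was lower in MyLa by less than 2-fold (-0.94 ± 0.11, adjusted p = 0.00556). GCN1 differed by 0.21 and did not pass the test (adjusted p = 0.355).

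Other serine, folate and methionine enzymes had 2 of 11 higher, AMT of glycine cleavage (2.64) and MTHFD2L (1.04), and 2 lower, ALDH1L1 (at least 12.7-fold) and MTHFD1 (-1.04), with a median of -0.23. Other amino acid enzymes had 1 of 11 higher, GOT1, the cytosolic aspartate aminotransferase (2.19), and 2 lower, the proline-degrading PRODH (-3.47) and ALDH4A1 (-1.63). Other transporters had 1 of 9 higher, the mitochondrial ornithine carrier SLC25A15 (3.08), and 2 lower, the glutamate carrier SLC1A3 (-2.74) and SLC16A10 (at least 6.52-fold). The mTORC1 list had 3 of 17 higher, RRAGD (at least 34.8-fold), SESN1 (3.84) and MLST8 (1.51), and 2 lower, with RPTOR the larger (-1.99).

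With IL-32γ, 3 of 108 measured genes of these lists passed 1.5-fold upward in MyLa and 9 downward. In HH none of 112 was higher and 2 were lower. Over all measured genes, 7.77% were higher and 7.65% lower in MyLa, and 1.14% higher and 4.46% lower in HH. The higher genes of the lists in MyLa were NPRL3 (0.71) and MLST8 (0.71) of the mTORC1 list and SDF2L1 of the endoplasmic reticulum (0.65). Among the lower were SLC1A3 (-1.09), EIF2A (-0.85), SLC36A1 (-0.74) and MTHFD1 (-0.69), and in HH they were RRAGB (-1.30), which read 6.98 and 5.67, and INHBE (-0.67). The medians of the 8 lists lay between -0.32 and -0.01 in MyLa and between -0.20 and 0.01 in HH, beside -0.07 for all genes in each line.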

How the data were processed

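The deposited values are in log2 units, 1 per probe set, and the authors made them with GCRMA, per the submitters' processing notes. Neither its version nor whether all 4 arrays went through it together is stated in the labels. The log2 scale was inferred from the range of the values (2.13 to 16.0). Each array held 54675 probe sets, of which 41097 had 1 gene symbol, updated through the Entrez identifier (41043 matched) with RefSeq names of GRCh38.p14. Scanner files were not used here. Values under 5 were set to 5. Differences within a line have no test. The 11010 genes with 5 or more on at least 2 arrays entered limma 3.58.1 (R 4.3.3), two-sided, with Benjamini-Hochberg adjustment. Lines were compared without a block (2 residual degrees of freedom) and IL-32γ with the line as a block (1). Adjusted p-values of genes below 5 throughout a line are too small, since set values have no spread. In a test on simulated data over 11010 genes, 50 were changed at each of 2-, 4-, 8- and 16-fold. The comparison of lines found 26, 44, 50 and 50 of them, with 12 false among 182 calls. The blocked one found 2, 46, 48 and 49, with 11 false among 156. The simulated noise was independent and normal, with no floor and, between lines, no IL-32γ response, and calls used the adjusted p alone. Far fewer genes were changed than the 56.0% that passed the adjusted p between the lines here. These counts therefore do not give the power or false calls of the fits on these data. The rule for names took all 41 genes of the list, their probe sets, and up to 4 genes with the largest differences per list of other genes. The members, lists and tests were chosen with earlier results of these data known. Alternatives covered the floor, the scaling of arrays, averaged probe sets, no _x_at or _s_at probe sets, the fold, an intensity trend, the block and each array left out. A rule that every measured probe set pass was added after seeing the data. Python 3.11.15, pandas 2.3.3, numpy 2.4.6 and matplotlib 3.10.9 were used.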

Additional observations from a re-analysis of the deposited data

Results flagged for a closer look

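In 4 of 38 genes the response to IL-32γ had opposite signs in the 2 lines and differed between them by 1.5-fold or more. The same was found in 7.78% of all 11010 genes. With 1 array per line and condition none of these differences was tested. PPP1R15A, which restores translation, stood at 0.61 in MyLa and -0.26 in HH, a difference of 0.87, and its other probe set had the same signs (0.74 and -0.39). TRIB3 stood at 0.34 and -0.37, a difference of 0.70, with its other probe set below 5 in HH. SLC1A4 stood at 0.33 and -0.38, a difference of 0.72, and 1 of its other probe sets stood at 0.29 and 0.99. CBS stood at -0.69 in MyLa and 0.15 in HH, a difference of -0.83, where its HH control value of 3.54 lies below the floor.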

How the results depend on the processing

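No call between the lines was lost with floors of 4 or 6, centred or quantile-normalised arrays, or an intensity trend. With IL-32γ treatment as a replicate block, 13 were higher and 4 lower, as without it. No paired analysis by replicate number was possible because the labels give no replicate numbers. Without _x_at and _s_at probe sets, which left values for 11 of the 17 called genes, 8 were higher and 2 lower, and SLC1A4 turned to -1.10. Leaving out each array in turn gave 7 to 12 higher and 4 lower. With IL-32γ in MyLa, 4 genes were higher when probe sets were averaged (SLC7A1, ATF5, TRIB3 and PPP1R15A), and at 2-fold 0 were higher and 0 lower. In HH, 1 gene was higher with a floor of 4 or none (CBS), with averaged probe sets (SLC7A1), and without _x_at and _s_at probe sets (SLC1A4). Across the lines the count at an adjusted p under 0.05 stayed 0 under all 9 alternatives, and at an unadjusted p it was 0 to 3. Asking every measured probe set to pass, chosen after seeing the data, left 11 higher and 4 lower between the lines. PPP1R15A was not called without a floor (adjusted p = 0.0780 in limma), nor CEBPG with averaged probe sets (0.89). The causes were not tested. Genes near the floor of 5, such as VEGFB, and the number of arrays limit what can be read.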
